A study of Caenorhabditis elegans with 20 samples.

Results

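The nuclear hormone receptor (NHR) genes of *Caenorhabditis elegans* with an *nhr* name were followed through exposure of the worm to the anthelmintic drug ivermectin (IVM). Members were the probesets that the annotation of the array gives to 1 gene named *nhr-* and a number. The genes *nhr-49*, *nhr-80*, *nhr-13* and *nhr-66* were left out. This gave 270 probesets of 247 genes among the 20563 probesets tested, and 11 further probesets that are given to several genes were not members. All animals were of strain DA1316, which carries mutations in *avr-14*, *avr-15* and *glc-1*, 3 genes for subunits of the glutamate-gated chloride channels on which IVM acts. The mutations were present in the drug and the control groups alike, so the arrays hold no wild-type worms. The *avr-15* allele is ad1250 in the sample labels and vu227 in the methods of the study, and this difference was not resolved. Worms were grown from synchronised L1 larvae for 53 hr at 20°C on plates with an OP50 lawn, then moved to drug or control plates for 4 hr. The labels call them adult and the series design places them at the L4 stage.

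Total RNA of whole nematodes was hybridised to 20 Affymetrix arrays in 4 groups of 5 biological replicates. At 1 µg/ml IVM the drug group and its control group held 0.01% DMSO. At 100 ng/ml IVM the drug group and its own control group held 0.001% DMSO. The values are log2 probeset intensities, and a log2 fold change is the mean of drug minus control over the 5 numbered pairs. A probeset was called at an adjusted p under 0.05 in limma, with Benjamini-Hochberg adjustment of p over the 20563 probesets. A description field of the samples names another drug and another DMSO share, and the groups follow the titles, source names and exposure labels instead. In 2 pairs of arrays the values stood apart. Replicate 2 of the 1 µg/ml experiment had *col-19*, a collagen gene of the adult cuticle, at 7.13 on its control and 6.54 on its drug array, against 11.53 to 12.08 on the other 8 arrays. Replicate 4 of the 100 ng/ml experiment ran opposite to the other pairs in many genes. Some results that rest on these pairs are given with and without them, and all other values include them. Because whole worms were used, fewer cells of a type and less RNA per cell cannot be told apart.

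Nuclear hormone receptors are transcription factors with a zinc finger DNA-binding domain and, in most cases, a ligand-binding domain that can hold a lipid or another small molecule. *C. elegans* has a far larger family than mammals or flies, and most of its members descend from an ancestor related to the vertebrate receptor HNF4. A conserved minority with counterparts in other animals governs moulting, neuron identity and the development of single tissues, and several HNF4-related members set the expression of metabolic and detoxification genes in the intestine.

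At 1 µg/ml IVM, 8 of the 270 *nhr* probesets (2.96%) rose and 3 (1.11%) fell. Among all probesets tested, 2.11% were called higher and 1.37% called lower at this dose, so the shares of the family lay near those of the array. The genes that rose were *nhr-18*, *nhr-206*, *nhr-90*, *nhr-32*, *nhr-134*, *nhr-4*, *nhr-193* and *nhr-121*, with log2 fold changes of 0.34 to 1.12. The genes that fell were *nhr-114*, *nhr-68* and *nhr-12*, with log2 fold changes of -0.92, -0.78 and -0.49. In 28 *nhr* probesets (10.4%) the drug array was the higher in all 5 pairs, against 7.29% of all probesets, and in 11 (4.07%) it was the lower in all 5 pairs, against 7.91%. Most of the family moved little, and 231 probesets (85.6%) had a log2 fold change of less than 0.25 in size. That share was 84.4% over all probesets. Without replicate 2, 9 of the 270 *nhr* probesets were called, 6 higher and 3 lower, and 8 of these were among the 11. The same fit called 587 of all 20563 probesets.

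The largest falls were in *nhr-114* and *nhr-68*, HNF4-related receptors of the intestine that take part in the response of the worm to its bacterial diet. NHR-68, together with NHR-10, activates the propionate shunt, an alternative route for the breakdown of propionate when vitamin B12 is scarce. NHR-114 activates genes of the methionine and S-adenosylmethionine (SAM) cycle, and protects the germline on some diets. The control arrays of the 1 µg/ml experiment had *nhr-114* levels of 8.95, 9.38, 7.51, 7.72 and 7.39 in replicates 1 to 5, and the drug arrays 8.05, 8.30, 6.71, 6.34 and 6.95. Replicates 1 and 2 were the high ones in both groups, so the groups overlapped although the drug array was the lower in 5 of 5 pairs. The log2 fold change was -0.92 (SE 0.13, limma adjusted p = 0.0088), a level 0.529 times that of the controls on the linear scale.

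For *nhr-68* the control levels were 8.44, 9.09, 7.79, 7.90 and 7.60, and the drug levels 7.87, 8.71, 6.76, 6.70 and 6.86. Within each group the order of the replicates was the same as for *nhr-114*, with replicate 2 highest, and the groups overlapped here too. The log2 fold change was -0.78 (SE 0.12, limma adjusted p = 0.013), with 5 of 5 pairs lower. Without replicate 1 the adjusted p in limma was 0.0517 for *nhr-114* and 0.0545 for *nhr-68*, and without replicate 4 it was 0.0548 for *nhr-68*, with log2 fold changes of -0.93, -0.84 and -0.68. A fit without the pairing called neither gene, and it called 64 of all probesets.

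**Figure D1:**
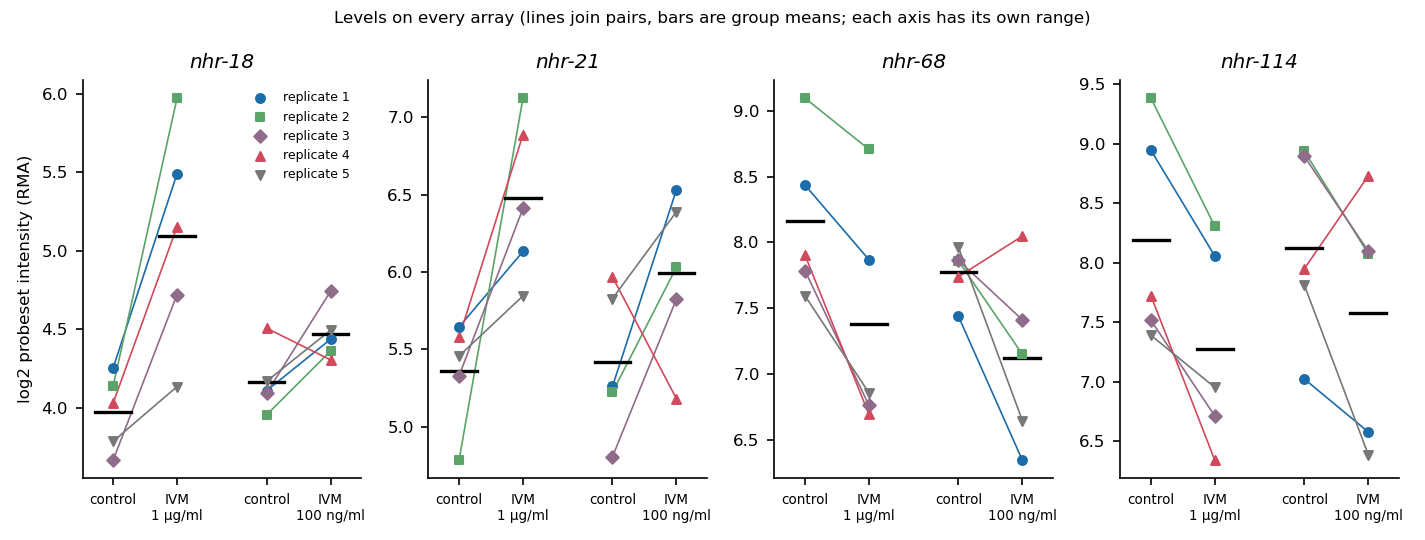
Log2 probeset intensity (vertical axis, a separate range for each gene) of *nhr-18*, *nhr-21*, *nhr-68* and *nhr-114* on all 20 arrays, by group on the horizontal axis. Points are arrays, lines join the control and drug array of a replicate number and thick bars are group means. All 5 lines at 1 µg/ml fall for *nhr-68* and *nhr-114* and rise for *nhr-18* and *nhr-21*, and at 100 ng/ml the line of replicate 4 runs opposite to the other 4.

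*nhr-10*, the partner of *nhr-68*, did not pass the test, with a log2 fold change of 0.00 (SE 0.08) and 3 of 5 pairs higher. The other diet and metabolism receptors did not pass either. *nhr-64* and *nhr-69* had log2 fold changes of 0.39 (SE 0.12, limma adjusted p = 0.127) and 0.33 (SE 0.12, limma adjusted p = 0.214), and the 2 probesets of *nhr-76* had 0.23 and -0.11. Without replicate 3, *nhr-64* passed at 0.51 (limma adjusted p = 0.0362). In all, 2 of the 7 probesets of this role were called, both lower, with a median log2 fold change of 0.00 over the 7.

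The enzymes of the pathways named above were counted beside their receptors. Of 6 probesets of the propionate shunt, 4 fell and none rose, with a median log2 fold change of -0.75 against -0.01 over all probesets. *acdh-1*, an acyl-CoA dehydrogenase and the best-known reporter gene of the shunt, changed by -0.84 (SE 0.16, limma adjusted p = 0.0286), with 5 of 5 pairs lower. *hphd-1* had 2 probesets, at -0.93 (SE 0.14, limma adjusted p = 0.0106) and -0.93 (SE 0.24, limma adjusted p = 0.081). The enoyl-CoA hydratase *ech-6* and the hydrolase *hach-1* fell by 0.61 and 0.66 on the log2 scale, whereas *alh-8*, for the last step, had -0.08 (SE 0.10) and did not pass.

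Of 6 probesets of the methionine cycle and its main outlet, 2 fell and 1 rose. Both that fell belong to *sams-1*, the SAM synthetase, at -0.89 (SE 0.14, limma adjusted p = 0.013) and -1.02 (SE 0.15, limma adjusted p = 0.0108). The one that rose was *pmt-1*, a methyltransferase that uses SAM to make phosphatidylcholine, at 0.68 (SE 0.12, limma adjusted p = 0.0238). *pmt-2*, for the other methyltransferase of the same route, had -0.36 (SE 0.08, limma adjusted p = 0.0562) with 5 of 5 pairs lower, so it lay on the other side of 0 from *pmt-1* and did not pass. The methionine synthase gene *metr-1* had -0.18 (SE 0.12) and did not pass. Whether the enzymes moved because of the receptors was not tested, and each value is a measurement of its own probeset on the same 10 arrays.

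**Figure D2:**
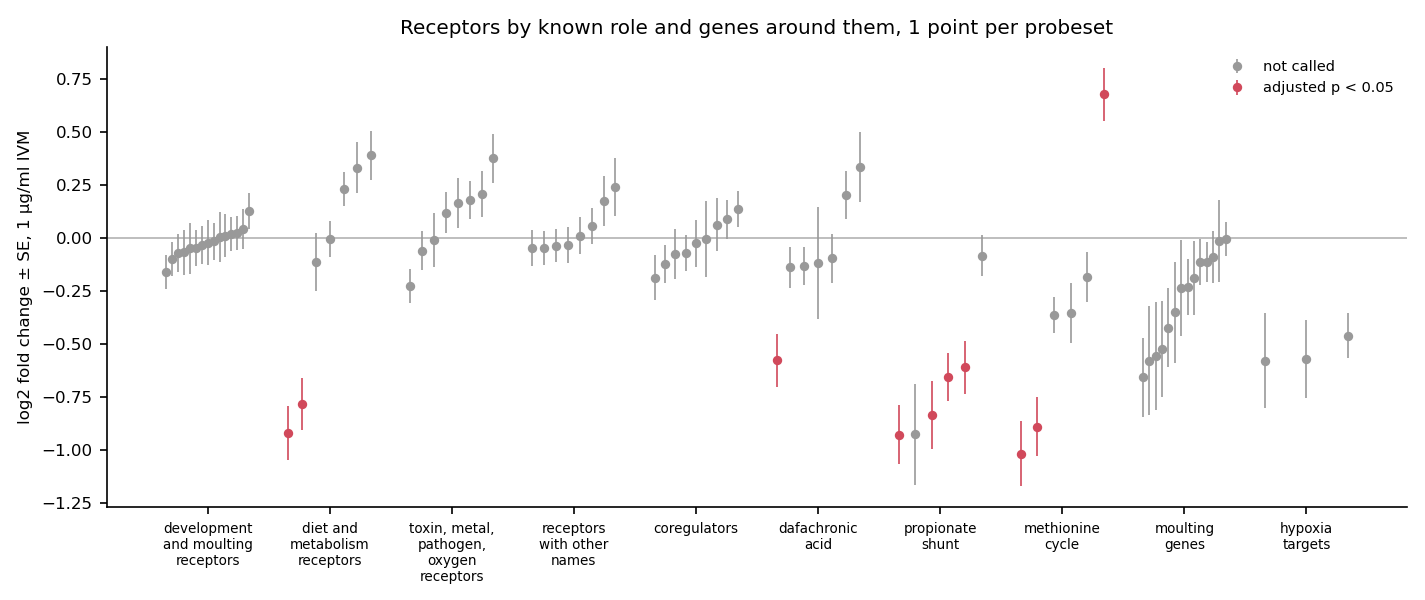
Log2 fold change at 1 µg/ml IVM (vertical axis, bars are SE from limma) for each probeset of 3 groups of *nhr* receptors and 7 lists of related genes (horizontal axis). Red points were called at an adjusted p under 0.05, and they lie in the diet receptors (2 of 7), the dafachronic acid pathway (1 of 7), the propionate shunt (4 of 6) and the methionine cycle (3 of 6).

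The third gene that fell was *nhr-12*, on chromosome V. Its control levels were 5.80, 5.98, 6.40, 6.53 and 6.29 and its drug levels 5.49, 5.40, 5.92, 6.05 and 5.68. The 5 pairs moved by similar amounts, -0.30 to -0.61, and the groups overlapped. The log2 fold change was -0.49 (SE 0.08, limma adjusted p = 0.0143), and the adjusted p in limma was 0.0698 without replicate 4. Next in order of fall came *nhr-9* and *nhr-31*, both at -0.23 with all 5 pairs lower, and neither was called (limma adjusted p = 0.204 and 0.202).

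The largest rise was in *nhr-18*, also on chromosome V. Control levels were 4.25, 4.14, 3.66, 4.03 and 3.78, and drug levels 5.49, 5.97, 4.72, 5.15 and 4.13. The drug array of replicate 5 lay within the range of the controls and the other 4 lay above it. The log2 fold change was 1.12 (SE 0.18, limma adjusted p = 0.013), a 2.18-fold higher intensity, and leaving out replicate 1 or 4 gave an adjusted p in limma of 0.0739 or 0.0629. Without replicate 2 the log2 fold change was 0.94 (limma adjusted p = 0.0137). The pair differences ran from 0.35 in replicate 5 to 1.84 in replicate 2.

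*nhr-21*, on chromosome II, had the same log2 fold change of 1.12 but a larger error (SE 0.25), and at a limma adjusted p of 0.0504 it lay just outside the threshold. Its control levels were 5.64, 4.78, 5.33, 5.58 and 5.46 and its drug levels 6.13, 7.12, 6.41, 6.89 and 5.85. Its control and drug groups did not overlap at this dose, and the share of all probesets with this trait was not counted. Replicate 2 set the width of the error, with the lowest control, the highest drug array and a difference of 2.34. Without that replicate the log2 fold change was 0.82 and the adjusted p in limma 0.0331. Its probeset carries the suffix for probes that may match several transcripts.

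The other genes that rose had smaller changes. For *nhr-206* the control levels of 3.71, 3.90, 3.59, 3.68 and 3.69 were the tightest of the called genes, and the drug levels were 4.66, 5.17, 4.23, 4.41 and 3.90. The drug array of replicate 5 equalled the highest control to 2 decimals and the other 4 lay above it. The log2 fold change was 0.76 (SE 0.14, limma adjusted p = 0.0233), and 0.63 without replicate 2 (limma adjusted p = 0.0366). For *nhr-32*, on chromosome X, the 5 pair differences were 0.80, 0.79, 0.60, 0.51 and 0.40, which gave 0.62 (SE 0.09, limma adjusted p = 0.0093), the smallest adjusted p among the genes that rose. *nhr-4*, on chromosome IV and measured by a probeset of the same suffix as that of *nhr-21*, had differences of 0.52, 0.89, 0.44, 0.75 and 0.41 and a log2 fold change of 0.60 (SE 0.10, limma adjusted p = 0.013). In all 3 of these genes the drug array was the higher in 5 of 5 pairs.

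*nhr-134* also had a log2 fold change of 0.60 (SE 0.10, limma adjusted p = 0.0133), with differences of 0.80, 0.49, 0.63, 0.79 and 0.30. *nhr-90* spread more widely, from 0.14 in replicate 5 to 1.30 in replicate 1, around a mean of 0.72 (SE 0.15, limma adjusted p = 0.0371). Replicate 5 gave the smallest difference in *nhr-18*, *nhr-21*, *nhr-206*, *nhr-90*, *nhr-32*, *nhr-134* and *nhr-4*. *nhr-193* (0.50, SE 0.11, limma adjusted p = 0.049) and *nhr-121* (0.34, SE 0.08, limma adjusted p = 0.0498) lay just inside the threshold. Neither was called when any 1 replicate was left out, with adjusted p values in limma of 0.0648 to 0.185 and 0.0518 to 0.187. Of the genes that rose, *nhr-32* lost its call without replicate 1 (limma adjusted p = 0.0545) and *nhr-4*, *nhr-134* and *nhr-206* lost theirs without replicate 1 or 4 (0.064 to 0.118). *nhr-90* kept its call only without replicate 5 (0.0227), and its adjusted p was 0.0626 to 0.123 without any of the others.

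**Figure D3:**
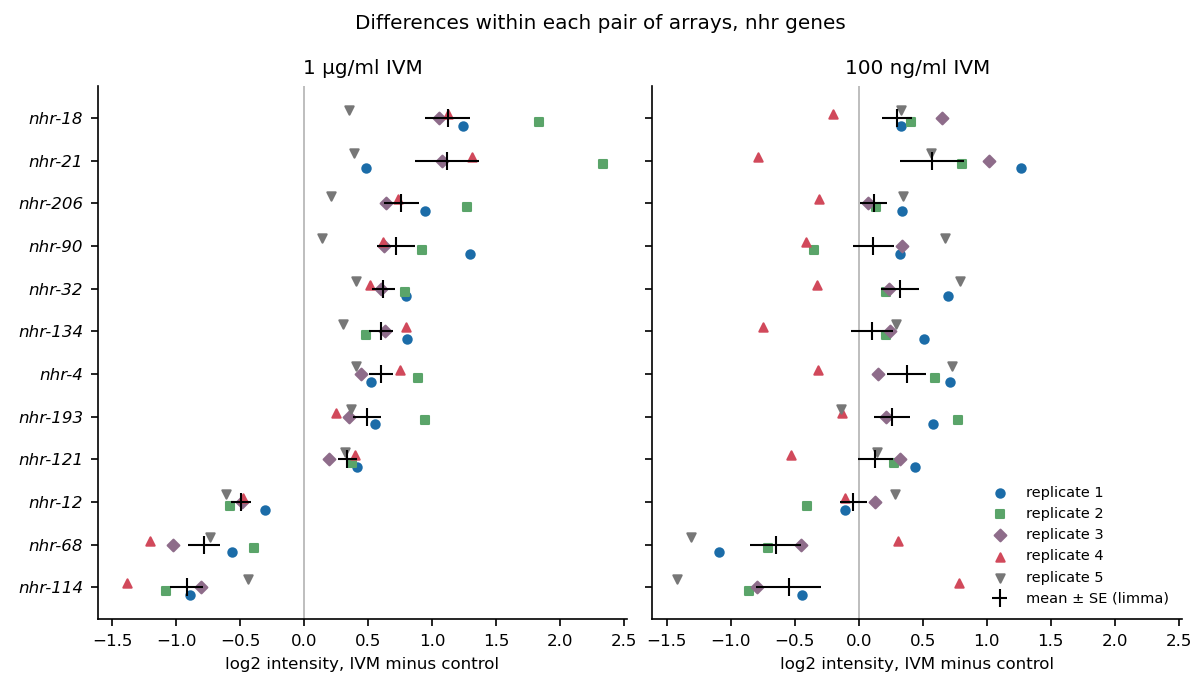
Differences in log2 intensity, IVM minus control, within each numbered pair at 1 µg/ml (left) and 100 ng/ml (right) for the 11 called *nhr* genes and *nhr-21*. Coloured symbols are the 5 replicates, black marks are the mean and SE from limma. On the left every symbol of a gene lies on the same side of 0, whereas on the right replicate 4 lies between -0.79 and 0.78 and, in all but *nhr-12*, opposite in sign to the mean.

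Between adjusted p values of 0.05 and 0.10 lay 7 probesets, *nhr-21* with *nhr-35*, *nhr-42*, *nhr-58*, *nhr-122*, *nhr-55* and *nhr-46*, and all 7 had a positive log2 fold change (0.39 to 1.12). At 1 µg/ml, 1234 of all 20563 probesets had an adjusted p under 0.10 and 715 had one under 0.05. Among the 270 *nhr* probesets these counts were 18 and 11. The direction of change in this band was not counted over all probesets. Of the 7 *nhr* probesets, *nhr-35* and *nhr-58* passed without replicate 5 (limma adjusted p = 0.011 and 0.0428), as did *nhr-42* without replicate 3 (0.0297). With no adjustment of p, 39 *nhr* probesets (14.4%) were higher and 7 (2.59%) lower at p under 0.05. The same shares over all probesets were 8.05% and 7.55%.

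Receptors with a known part in development stayed close to their controls. The 15 probesets of this role had log2 fold changes from -0.16 to 0.13 and a median of -0.02. Of these, 0 were called, against 3.48% of all probesets. Among them were *nhr-23*, needed for each moult, at -0.05 (SE 0.12), *nhr-25*, the counterpart of the fly factor Ftz-F1, at -0.03 (SE 0.09), *nhr-67*, the counterpart of fly tailless, at 0.02 (SE 0.08), and *nhr-6*, needed to form the spermatheca, at 0.04 (SE 0.10). These values do not show that the receptors were unaffected, since differences several times the SE can fall short of the threshold with 5 pairs. *nhr-64*, at 0.39 (SE 0.12, limma adjusted p = 0.127), did so.

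The 8 probesets of receptors tied to toxins, metals, pathogens or oxygen were likewise not called, with a median of 0.14 and a range of -0.23 to 0.38. The share called was 3.48% over all probesets, so 0 of 8 says little. *nhr-8*, which takes part in resistance to toxic compounds and in sterol balance, had 0.21 (SE 0.11, limma adjusted p = 0.401) with 4 of 5 pairs higher. *nhr-45*, which drives detoxification genes of the intestine, had 0.38 (SE 0.12, limma adjusted p = 0.137), and without replicate 5 it passed at 0.50 (limma adjusted p = 0.0344). *nhr-176*, needed for the induction of a cytochrome P450 by the anthelmintic thiabendazole, had 0.16 (SE 0.12), and *nhr-57*, a target of the hypoxia factor HIF-1, had 0.18 (SE 0.09). The other 3 targets of HIF-1 counted beside it lay below 0 in 5 of 5 pairs each, *rhy-1* at -0.46 (SE 0.11, limma adjusted p = 0.0561), *cysl-2* at -0.57 (SE 0.18) and *phy-2* at -0.58 (SE 0.22), and none was called. *nhr-86*, which senses a bacterial metabolite, was at -0.06 (SE 0.09), and *nhr-14*, which governs iron uptake, at -0.01 (SE 0.13).

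Receptors without an *nhr* name and the partners of the family also gave no calls. At this dose 3.48% of all probesets were called, so 0 calls in a list this short say little. The 8 probesets of *daf-12*, *sex-1*, *fax-1*, *unc-55* and *odr-7* ranged from -0.05 to 0.24. The 9 probesets of coregulators, among them *mdt-15*, a Mediator subunit that serves several NHRs of lipid metabolism, ranged from -0.19 to 0.14. In the pathway that makes dafachronic acid, the steroid ligand of DAF-12, 1 of 7 probesets was called, that of the oxygenase *daf-36*, at -0.58 (SE 0.13, limma adjusted p = 0.0452). The cytochrome P450 *daf-9*, which makes the last step, had 0.34 (SE 0.17, limma adjusted p = 0.381).

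At 100 ng/ml IVM no *nhr* probeset was called in limma, and 0% of all probesets were. At an unadjusted p under 0.05 there were 13 *nhr* probesets (4.81%), against 4.35% of all probesets. Rank Products called 0 of the family and 43 of all probesets. With so few called on the array, the 0 says little about the family. The largest positive log2 fold changes were those of *nhr-21* (0.57, SE 0.25), *nhr-42* (0.47, SE 0.22), *nhr-19* (0.46, SE 0.15), *nhr-99* (0.42, SE 0.20) and *nhr-4* (0.37, SE 0.15). The largest negative ones were those of *nhr-68* (-0.65, SE 0.20) and *nhr-114* (-0.55, SE 0.25), followed by *nhr-9*, *nhr-31* and *nhr-194* at -0.16 to -0.17. All had a limma adjusted p of 0.936.

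Replicate 4 of the 100 ng/ml experiment ran opposite to the other pairs in most of the genes with large values. For *nhr-68* the pair differences were -1.09, -0.71, -0.45, 0.31 and -1.31, and for *nhr-114* they were -0.45, -0.86, -0.80, 0.78 and -1.43. For *nhr-21* they were 1.27, 0.81, 1.02, -0.79 and 0.56. In each of these genes 4 pairs had the sign seen at 1 µg/ml and replicate 4 had the other. An exchange of the drug and the control array in this pair and a different response of its worms cannot be told apart here. Every 100 ng/ml value from 5 pairs includes it, among them the 0 calls and the -0.55 of *nhr-114*, which was -0.88 without the pair.

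Without replicate 4, 3 *nhr* probesets (1.11%) were called higher, against 0.977% of all probesets, and 2 (0.741%) lower, against 0.545%. These were *nhr-21* (0.91, SE 0.12, limma adjusted p = 0.0062), *nhr-19* (0.64, SE 0.10, limma adjusted p = 0.0117) and *nhr-99* (0.69, SE 0.11, limma adjusted p = 0.0146), and *nhr-68* (-0.89, SE 0.14, limma adjusted p = 0.0143) and *nhr-114* (-0.88, SE 0.14, limma adjusted p = 0.0166). Leaving out any other replicate gave 0 calls. These calls describe the other 4 pairs only. Replicate 4 was set apart for opposite differences in genes that include these, so the calls are not independent of that choice.

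Replicate 4 at 100 ng/ml also differed in genes of the moulting cycle. *nhr-23* had control levels of 5.72, 5.44, 5.71, 6.20 and 5.47 and drug levels of 5.47, 5.41, 5.79, 7.13 and 5.38 at this dose, so its difference was 0.93 in replicate 4 and -0.25 to 0.08 in the others. The mean difference over 14 moulting probesets was 0.34 in replicate 4, and 0.02, -0.35, -0.36 and -0.78 in replicates 1, 2, 3 and 5. The same mean at 1 µg/ml was -1.12 in replicate 2 and -0.20 to -0.03 in the other 4, and replicate 2 was also the pair with the largest differences in *nhr-18*, *nhr-21* and *nhr-206*. None of the 14 was called at either dose. The part of moulting stage in the *nhr* results was not tested.

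**Figure D4:**
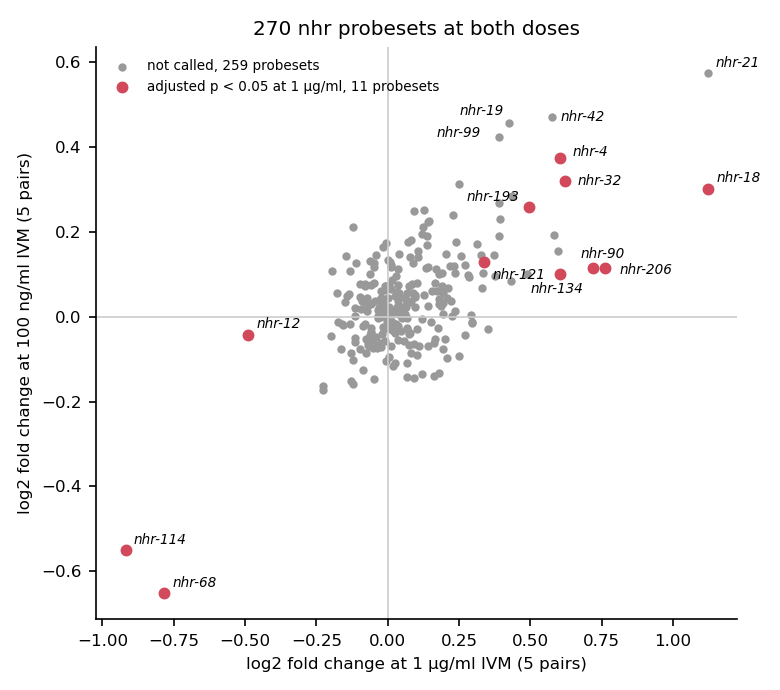
Log2 fold change at 1 µg/ml (horizontal axis) and at 100 ng/ml (vertical axis) for the 270 *nhr* probesets, each from its own 5 pairs. Red points are the 11 probesets called at 1 µg/ml; *nhr-68* and *nhr-114* lie apart at the lower left, *nhr-21* and *nhr-18* at the right, and *nhr-12* is at -0.49 and -0.04.

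The effects of both doses were compared in a single fit of all 20 arrays. No *nhr* probeset differed between the doses at an adjusted p under 0.05, and 0.00486% of all probesets (1 probeset) did. At an unadjusted p under 0.05 there were 13 *nhr* probesets (4.81%) against 6.79% of all. The smallest unadjusted p values were those of *nhr-18* (0.82, SE 0.23), *nhr-206* (0.65, SE 0.19) and *nhr-12* (-0.45, SE 0.13), with limma adjusted p values of 0.637, 0.638 and 0.652. For *nhr-68* the difference was -0.13 (SE 0.26) and for *nhr-114* -0.37 (SE 0.32). Both include replicate 4 of the 100 ng/ml experiment. Without that pair their log2 fold changes at 100 ng/ml were -0.89 and -0.88, against -0.78 and -0.92 at 1 µg/ml. Dose, DMSO share and experiment changed together in this contrast and cannot be told apart.

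Over the whole family the log2 fold changes leaned slightly upwards. The median over the 270 probesets was 0.04 at 1 µg/ml and 0.03 at 100 ng/ml, against -0.01 and 0.01 over all probesets. The family medians of the 5 pairs at the higher dose were 0.01, 0.11, 0.04, 0.10 and -0.05 (SD 0.063). Those of all probesets were -0.01, -0.02, -0.03, 0.02 and -0.01. The SD is that of single pairs, not the error of the median over 5 pairs, and the lean was not tested. The family median at 1 µg/ml was 0.022 without replicate 2 and 0.055 without replicate 5. At 100 ng/ml it was 0.014 without replicate 2 and 0.043 without replicate 3. The mean was positive in 169 *nhr* probesets (62.6%), against 45.6% of all.

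Many of the family have low intensities, and 210 of the 270 (77.8%) lay below the median of the mean intensities of all probesets. The means over the 20 arrays ran from 2.91 to 7.79. In the lower part of the intensity range 5 of 210 *nhr* probesets were called at 1 µg/ml (2.38%, against 1.02% of all probesets there), and in the upper part 6 of 60 (10.0%, against 5.93%). All 3 probesets that fell were in the upper part. The values carry no detection calls, so whether the dimmest probesets measure a transcript was not tested.

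All 247 genes were found in the WBcel235 annotation of the genome, which lists 283 *nhr* genes in all. Chromosome V held 160 of them (64.8%), chromosomes IV and X held 27 and 23, and chromosomes I, II and III held 17, 13 and 7. Chromosome V also held 8 of the 11 called probesets, 5 that rose and 3 that fell. Of the others, *nhr-32* lies on X, *nhr-4* on IV and *nhr-121* on III. In that annotation 10 of the genes are pseudogenes, and none of their 10 probesets was called, against 3.48% of all probesets.

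Of the 247 genes, 120 have another *nhr* gene as the next gene on the chromosome, and the genes that rose were looked up in this order after their values were seen. *nhr-56*, *nhr-128*, *nhr-103*, *nhr-18*, *nhr-126*, *nhr-134* and *nhr-96* follow each other on chromosome V. Their log2 fold changes at 1 µg/ml were 0.14, 0.01, 0.37, 1.12, -0.03, 0.60 and 0.30, so the 2 called genes of the run were separated by one near 0, and *nhr-128* lay near 0 as well. Elsewhere a called gene had a neighbour with a small value, as with *nhr-206* (0.76) and *nhr-208* (0.10), *nhr-90* (0.72) and *nhr-250* (-0.13), and *nhr-12* (-0.49) and *nhr-205* (-0.06). Over 72 neighbouring pairs of 105 genes, 43 pairs had the same sign, and the correlation of their log2 fold changes was 0.21. As 62.6% of the *nhr* probesets had a positive mean, many pairs that are not neighbours would share a sign too. In 5 of the 72 pairs both genes were above 0.25, among them *nhr-55* (0.39) and *nhr-99* (0.39). Likeness between neighbours was not tested. The pairs share arrays and some share genes.

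For 20 genes 2 or more probesets were members, 43 in all, and 227 genes had 1. The probesets of a gene had the same sign at 1 µg/ml in 12 of the 20 genes. They differed by a median of 0.12, and by up to 0.35 in *nhr-11* and *nhr-92*. None of the 43 was called, against 3.48% of all probesets, so no call was checked by another probeset of its gene. None of the 11 probesets given to several genes was called either. One of these carries the symbol *nhr-62* in both entries, and its log2 fold change was 0.36 (SE 0.13, limma adjusted p = 0.221) with 5 of 5 pairs higher. NHR-62 is needed for the longer life of worms on a restricted diet.

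Some receptors varied widely among the control arrays. After the mean of each experiment was taken off, the SD over the 10 control arrays was 0.86 for *nhr-114*, 0.57 for *nhr-46*, 0.56 for *nhr-31*, 0.50 for *nhr-70* and 0.49 for *nhr-8*, the 5 widest of the family. The median was 0.194 over the family and 0.263 over all probesets. In the 1 µg/ml experiment controls 1 and 2 were the highest for all 5 genes. *nhr-31*, which controls subunits of the vacuolar ATPase in the excretory cell, had control levels of 8.21, 8.39, 7.31, 7.01 and 7.22, and *nhr-46* had 7.21, 7.39, 6.40, 5.92 and 5.72. For *nhr-114* the control level of replicate 1 was 8.95 in one experiment and 7.02 in the other. The pairing takes off such differences between replicates. A fit without the pairing called 0 *nhr* probesets and 64 of all probesets at 1 µg/ml, so the 0 says little about the family. At an unadjusted p under 0.05 that fit had 16 *nhr* probesets, and the share of all probesets was not counted.

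**Figure D5:**
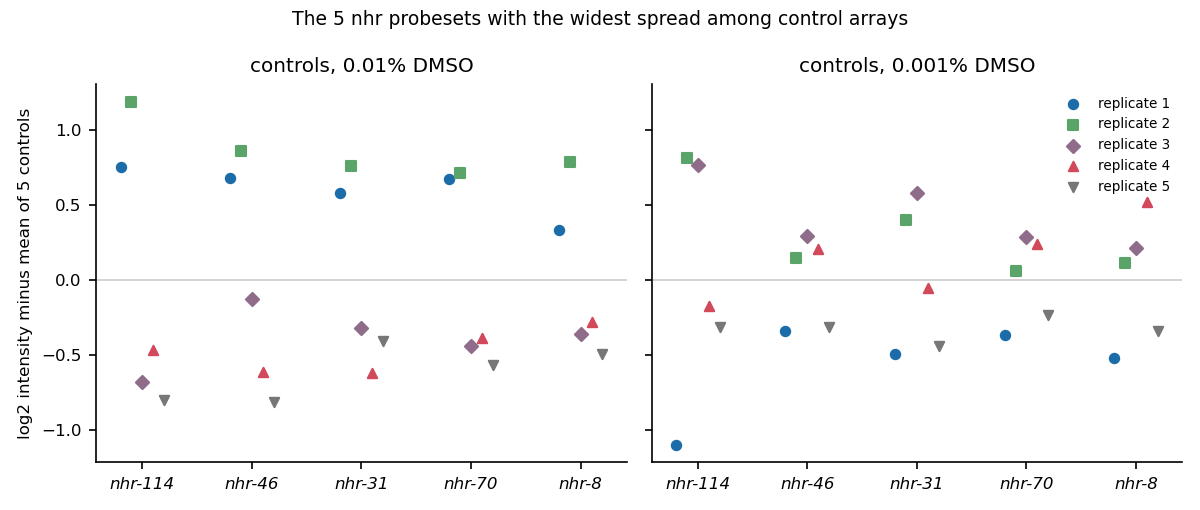
Log2 intensity of each control array minus the mean of the 5 controls of its experiment (vertical axis) for the 5 *nhr* probesets with the widest spread (horizontal axis), in the 1 µg/ml experiment (0.01% DMSO, left) and the 100 ng/ml experiment (0.001% DMSO, right). On the left replicates 1 and 2 lie above the other 3 for every gene. On the right the full order is not the same for every gene, although replicate 1 is lowest and replicate 5 next for *nhr-114*, *nhr-31* and *nhr-8*.

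The controls of both experiments were close for most of the family, with a median difference of 0.06 (0.01% DMSO minus 0.001% DMSO). In 6 probesets the controls differed by more than 0.5, from -0.51 in *nhr-1* to 0.81 in *nhr-42*. *nhr-42* had control means of 6.83 ± 0.21 and 6.03 ± 0.57 (SD, n = 5), and *nhr-12* of 6.20 ± 0.30 and 5.53 ± 0.28. For *nhr-12* this difference of 0.67 between experiments was larger than its fall of 0.49 within the 1 µg/ml experiment.

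Marker genes of tissues gave the setting of these values. Of 8 intestinal probesets at 1 µg/ml, *ges-1* rose (0.91) and *act-5* and *pept-1* fell (-1.11 and -0.71), while the regulators *elt-2* and *elt-7* had 0.25 and 0.24 and were not called. The mean level of the 8 ran from 8.68 to 9.87 on control arrays and from 8.65 to 9.87 on drug arrays. Of 10 neuronal probesets 1 was called, that of *egl-3*, which rose by 0.41. None of the probesets of muscle, pharynx, epidermis, germline, sperm or oocyte markers was called, but the medians of some lists lay above 0. The 11 muscle probesets had a median of 0.25 against -0.01 over all probesets, and their mean differences in the 5 pairs were 0.28, 0.29, 0.33, 0.13 and 0.30. They cover only 5 genes, and most of them belong to *lev-11*. *myo-3*, *unc-15*, *unc-54* and *unc-27*, with 1 probeset each, had 0.36, 0.23, 0.20 and 0.18. The neuronal median was 0.16, with pair means of 0.05 to 0.31, and the pharyngeal median was 0.21, with pair means of -0.10 to 0.50. At 100 ng/ml these 3 medians were 0.02, 0.03 and 0.00. Mean levels of the oocyte markers on control arrays ran from 7.43 to 9.68 in the 1 µg/ml experiment and from 9.07 to 10.3 in the other. The 7.43 was replicate 2, whose drug array was also the lowest of its group at 6.89, and whose *nhr-114* and *nhr-68* levels were the highest of both groups. The part of tissue make-up in the *nhr* results was not tested.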

How the data were processed

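The authors summarised the Affymetrix arrays with RMA, and the deposited values are log2 probeset intensities; tool versions are not given in the sources used here. Values were used as deposited for 20 arrays, after 12 spike-in probesets were left out of 20575. Arrays give no read depth, and their number limits the precision. Probesets were named from the platform annotation, and chromosomes and gene order from the WBcel235 table of RefSeq. Each dose was fitted in limma 3.58.1 (R 4.3.3) on its 10 arrays and blocked by replicate number, since the methods of the study split each worm suspension between drug and control plates. After group means were taken off, arrays with the same number correlated at 0.499 to 0.884 at 1 µg/ml and 0.553 to 0.883 at 100 ng/ml. Replicate 3 at 1 µg/ml and replicate 5 at 100 ng/ml were closer to an array of another number (0.673 and 0.815). The doses were compared over 20 arrays with 10 blocks.

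Members, gene lists and rules were chosen with earlier results of these data known. Named genes are the called members, the 10 largest rises and falls at 1 µg/ml and the 5 at 100 ng/ml, the members of the role lists and the 5 widest among controls. Other genes named, such as neighbours, were chosen after their values were seen. Alternatives were other normalizations, filters, variance models and weights, a fit without the block, each replicate left out, and Rank Products with 100 permutations at 5% false positives (Python 3.11.15, numpy 2.4.6). The fits were tested on simulated data. Grouping by zinc finger sequence was planned but not run, as protein sequences were not used here.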

Additional observations from a re-analysis of the deposited data

Results flagged for a closer look

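In each group of 5 pair differences of the named genes, and of the family median, the gap of the outermost pair to its neighbour was compared with Dixon's critical value of 0.71. Of 110 such groups 5 were past it, and chance gives about 1 in 20. At 100 ng/ml all 3 were in replicate 4. The difference of *nhr-23* was 0.93 there, that of *nhr-19* was -0.28 and that of *nhr-134* was -0.75, each far from the other 4 pairs. At 1 µg/ml both were in replicate 5, where *nhr-41* had a difference of -0.37, on the probeset at a log2 fold change of -0.16, and *nhr-35* had -0.089. The log2 fold change of *nhr-19* was 0.64 (limma adjusted p = 0.0117) over the other 4 pairs.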

How the results depend on the processing

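At 1 µg/ml 11 *nhr* probesets were called. The count was 0 without the replicate block, 17 with array quality weights and 18 at an adjusted p under 0.10. With unpaired Rank Products it was 4 (*nhr-18*, *nhr-21*, *nhr-68* and *nhr-114*). Over all probesets these alternatives called 64, 973, 1234 and 294 in the same order, against 715 in the reported fit. Leaving out a replicate gave 1 to 14 calls, with 1 without replicate 1 (*nhr-12*) and 2 without replicate 4 (*nhr-114* and *nhr-32*). These fits called 205 to 707 of all probesets, with 205 without replicate 1 and 218 without replicate 4. The other alternatives gave 10 to 13. At 100 ng/ml the count was 0 under every alternative but the fit without replicate 4, so that leaving out a replicate gave 0 to 5. Over all probesets at this dose, that fit called 313 and Rank Products called 43. The contrast of the doses gave 0 under every alternative run, and the block changed no call at 100 ng/ml or between the doses. The family median at 1 µg/ml was 0.04, and 0.12 among probesets at or above the median intensity, where 60 of the 270 were tested. For single named probesets 43 values fell short of the threshold that the reported value passed, and 26 passed it where the reported value did not, 21 of 7 genes at 1 µg/ml and 5 of 5 genes at 100 ng/ml without replicate 4. The other 1167 kept their side, and no called value changed direction. With 5 pairs, small changes are not detectable.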
